A study of Homo sapiens with 12 samples.

Results

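Nuclear genes for the subunits of oxidative phosphorylation were followed in 2 human pancreatic adenocarcinoma lines sorted by a surface antigen. The genes were picked from the deposited expression table by symbol alone: NDUFA, NDUFB, NDUFC, NDUFS or NDUFV with a number, UQCR, COX4 to COX8, ATP5, *SDHA* to *SDHD* and *CYC1*. Of the 23346 genes in the table, 92 had such a symbol. By their known roles, 36 were assigned to complex I, 4 to complex II, 10 to complex III, 19 to complex IV and 16 to complex V. *NDUFA4* and its paralog *NDUFA4L2* were counted with complex IV, where the NDUFA4 protein is now placed. The other 7 matched the symbols without being subunit genes. They were *COX4NB* (now *EMC8*, of a membrane protein insertion complex), *ATP5S*, *ATP5SL*, the read-through genes *ATP5J2-PTCD1* and *NDUFC2-KCTD14*, and the pseudogenes *ATP5EP2* and *UQCRBP1*. Subunits with other symbols, such as *NDUFAB1*, fall outside the rule, and the 13 subunits encoded by mitochondrial DNA were not analysed here.

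SW1990 and CFPAC-1 are established lines from pancreatic adenocarcinoma metastases. Cells were stained with GCTM-5, a monoclonal antibody to a sialidase-sensitive glycoprotein antigen related to CA 19-9, and flow sorted into strongly stained (positive) and unstained (negative) cells, with those between left out. Each line gave 3 positive and 3 negative samples, or 12 samples in 4 groups, and no drug or gene alteration was applied to any of them. Each group is thus a model of the stained or unstained cells of 1 line in culture, and both lines carry the mutations of their own tumour in every group. The study's methods name triplicate sorts, without saying whether they came from separate cultures or which positive and negative samples shared a sort, so the p-values below measure the spread between these sorts, which may be technical. Libraries were made and sequenced by 2 providers, and which provider handled which sample is not given in the sources used here, so line and provider cannot be told apart.

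The 12 libraries held from 9969697 to 26159330 reads, the fewest in positive CFPAC-1 replicate 3. All 5 epithelial markers checked (*EPCAM*, *KRT8*, *KRT18*, *KRT19* and *CDH1*) were expressed in every group, and their summed RPKM (read counts normalised for library size and gene length) was 1360 to 1630 in the negative and 4010 to 4560 in the positive SW1990 samples. In CFPAC-1 the sums were 5220 to 6000 and 6400 to 7690. The acinar and endocrine markers summed to at most 0.295 RPKM, with the acinar gene *CPA1* and the hormone gene *GCG* at 0 in all samples. Negative SW1990 cells also held more of the endothelial markers (14.8 to 18.8 against 1.47 to 2.05 RPKM, led by *CDH5*, log2 fold change −3.46, adjusted p = 2.52e-07) and of the fibroblast markers (10.7 to 21.1 against 3.86 to 4.86 RPKM, with *LUM* at −2.32, adjusted p = 0.00122). In CFPAC-1 each of these 2 sums was at most 2.33 RPKM. Leukocyte markers summed to 16.0 to 48.1 RPKM in SW1990 and to 160 to 224 in CFPAC-1, with *CD3E* at 0 in SW1990 and *PTPRC* at 0 in negative CFPAC-1 samples. Most of these sums came from *CD68* and *LYZ*. Their means were 42.0 and 1.24 RPKM in negative SW1990 samples, and 120 and 64.1 RPKM in negative CFPAC-1 samples. The part of these differences in the results below was not tested. In bulk RNA, fewer cells of a type and less RNA per cell cannot be told apart.

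Oxidative phosphorylation takes place in the inner mitochondrial membrane. Complexes I and II pass electrons from NADH and succinate to ubiquinone, complex III passes them to cytochrome c, and complex IV hands them to oxygen. Complexes I, III and IV pump protons, and complex V, the ATP synthase, lets them flow back through a rotating ring to make ATP. Most subunits are encoded in the nucleus, and some of those of complexes IV and V come as alternative isoforms from paralogous genes that are used in different tissues.

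All but 3 of the 92 genes had a mean of at least 0.1 RPKM over the 12 samples and were fitted, 89 in all. Those below were *COX4I2*, with 1 read in 1 negative CFPAC-1 sample, and *COX6A2* and *COX7B2*, with no read in any sample. All 3 are tissue-restricted isoforms of complex IV, known from lung, from heart and muscle, and from testis. Among the fitted genes the mean level ran from 0.103 RPKM for the pseudogene *UQCRBP1* to 338 RPKM for *COX8A*. The median level over the subunit genes of complex I was 17.0 to 22.0 RPKM in the negative SW1990 samples and 19.8 to 21.0 in the positive ones, and 16.4 to 17.8 and 20.9 to 24.8 RPKM in CFPAC-1. For complex III the ranges were 31.2 to 35.9, 39.3 to 42.1, 19.4 to 21.0 and 22.5 to 26.8 RPKM, and for complex V 21.8 to 29.1, 25.5 to 29.1, 19.9 to 22.2 and 27.7 to 31.3 RPKM. For complex II they were 18.2 to 20.4, 19.8 to 21.5, 25.1 to 26.1 and 27.7 to 29.4 RPKM. For complex IV, with its 3 unfitted genes counted in, they were 13.7 to 16.1, 20.5 to 23.9, 14.5 to 17.7 and 15.5 to 17.7 RPKM, so its CFPAC-1 groups overlapped. *ATP5I*, a small membrane subunit of complex V, had 1 to 13 reads per sample (0.155 to 2.47 RPKM), and 61.3% of its exon bases lie opposite exons of *MYL5*.

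In CFPAC-1, 35 of the 89 genes were higher in positive than in negative cells and 2 were lower. A gene was called where its p from limma, on log2(RPKM + 0.1), was under 0.05 after Benjamini-Hochberg adjustment over all 16236 fitted genes. Across all genes, 22.3% were called higher and 14.2% lower in this comparison. The median log2 fold change of the 89 was 0.35, against 0.05 for all genes. In 47 of the 89 every positive sample lay above every negative one, as in 28.1% of all genes, and in 3 every positive sample lay below, as in 20.4% of all genes. Most of the changes were small. By a rule of over 2-fold with an unadjusted p under 0.01, 2 genes were higher (*ATP5D* and *ATP5G1*) and 0 lower, against 5.65% and 4.13% of all genes. The count depended on how the libraries were scaled. Centring each sample on its median moved the median of all genes from 0.05 to −0.05 and gave 20 higher and 4 lower, with 17.2% and 18.8% of all genes called. Removing each sample's trend with gene length and GC content gave 17 higher and 6 lower, with 21.2% and 18.9% of all genes. Without positive replicate 3, the shallowest library, 28 were higher and 1 lower, and with median centring as well 19 were higher. The shares of all genes called in these last fits are not given here.

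In SW1990, 12 of the 89 genes were higher in positive cells and 1 was lower, with 11.3% of all genes called higher and 16.9% lower. The median log2 fold change of the 89 was 0.11, against −0.04 for all genes. Positive samples all lay above negative ones in 16 of the genes and all below in 2, as in 17.9% and 25.4% of all genes. By the 2-fold threshold 1 gene was higher, *COX6B2*, and 0 were lower (4.59% and 7.48% of all genes). The number higher depended on single libraries. The negative samples differed among themselves: 82 of the 89 genes were above their group mean in negative replicate 2, with a median deviation of 0.19 on the log2 scale, and only 14 were above it in negative replicate 3, at −0.16. The deviation was larger in the genes shorter than 800 bases (0.26 and −0.21) than in longer ones (0.15 and −0.12), while that of all genes was −0.02 and 0.02. Without negative replicate 2 the count of higher genes was 23, and without negative replicate 3 it was 4. It was 6 without negative replicate 1, and 5 without positive replicate 1 or without positive replicate 3. The shares of all genes called in these fits are not given here. How far the calls over all genes moved in these fits was thus not compared with the counts of these genes.

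The 2 lines shared 8 of these calls, all higher: *ATP5F1*, *ATP5G3*, *COX7B*, *COX8A*, *CYC1*, *NDUFA9*, *UQCRFS1* and *UQCRHL*. They made up 66.7% of the genes higher in SW1990 and 22.9% of those higher in CFPAC-1. Over all genes the 650 shared higher calls made up 35.5% and 17.9%. No gene was lower in both. The change itself differed between the lines for 12 genes, with 2 more positive and 10 more negative in SW1990, where 9.16% and 17.8% of all genes were called. The median difference was −0.19 for the 89 genes and −0.15 for all genes, and median centring moved these to −0.04 and 0.00 with 3 and 5 genes called. By the 2-fold rule 1 gene was called more positive and 0 more negative, against 5.33% and 8.84% of all genes. With the length and GC trend removed, 8 and 7 genes were called. The shares of all genes called after median centring or with this trend removed are not given here for the difference between changes.

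**Figure D1:**
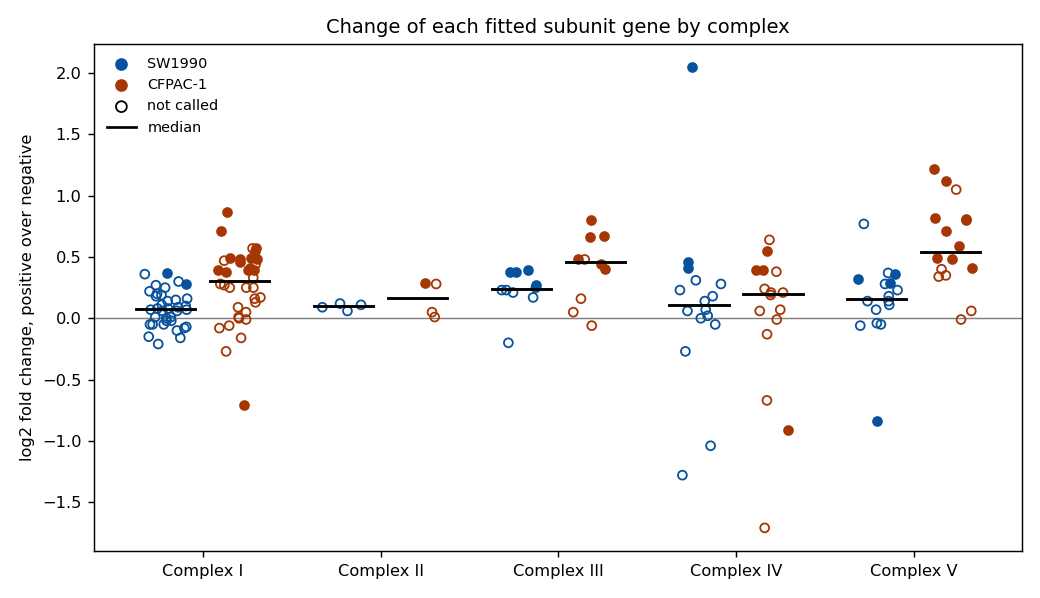
Log2 fold change of positive over negative cells for each of the 82 fitted subunit genes, by complex, in SW1990 (blue) and CFPAC-1 (brown). Filled points passed an adjusted p under 0.05, and bars mark medians. Complex V had the highest CFPAC-1 median, 0.54, against 0.16 in SW1990, and *COX6B2* stood apart at 2.05 in SW1990 and −0.91 in CFPAC-1.

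In complex V, 10 of 16 genes were higher in positive CFPAC-1 cells and none lower, with a median log2 fold change of 0.54. In SW1990, 3 were higher (*ATP5C1*, *ATP5F1* and *ATP5G3*) and 1 lower, with a median of 0.16. The shares of all genes called higher were 22.3% in CFPAC-1 and 11.3% in SW1990, and those called lower were 14.2% and 16.9%. Of the 12 genes whose change differed between the lines, 6 were of complex V (*ATP5B*, *ATP5D*, *ATP5G1*, *ATP5G2*, *ATP5J* and *ATP5J2*), each with the more negative change in SW1990. A more negative change there was called for 17.8% of all genes. Under the other scalings the CFPAC-1 counts were 9 higher after median centring, 9 after quantile normalization and 7 after removal of the length and GC trend, with 0 lower in each. In SW1990, quantile normalization left 0 higher.

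*ATP5B* codes for the catalytic beta subunit of the F1 head. It lies at chr12:57031959-57039768 (GRCh37, minus strand). It measured 87.8, 81.8 and 88.5 RPKM in negative and 151, 149 and 154 RPKM in positive CFPAC-1 samples. The groups were well apart, by a log2 fold change of 0.82 (SE 0.09, adjusted p = 8.86e-05), which is 1.76-fold. In SW1990 it measured 131, 149 and 116 RPKM in negative and 158, 142 and 147 RPKM in positive samples, and these overlapped (0.18, SE 0.09, adjusted p = 0.178). The positive groups of the 2 lines differed by −0.03 on the log2 scale (adjusted p = 0.82). The difference between the 2 changes was −0.64 (adjusted p = 0.00391).

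*ATP5D*, the delta subunit of the central stalk, measured 10.2, 10.7 and 7.76 RPKM in negative and 18.2, 18.0 and 26.5 RPKM in positive CFPAC-1 samples. This was a rise of 1.12 (SE 0.16, adjusted p = 0.000302). In SW1990 it measured 16.4, 19.4 and 18.1 against 23.7, 23.4 and 22.6 RPKM, groups that did not overlap but did not pass (0.37, adjusted p = 0.101). The alpha subunit gene *ATP5A1* rose by 0.48 in CFPAC-1 (SE 0.13, adjusted p = 0.0151), from 45.1 ± 3.71 to 63.3 ± 7.84 RPKM (mean ± SD, n = 3). That call was lost after median centring, quantile normalization, removal of the length and GC trend, or without negative replicate 2. *ATP5C1*, the gamma subunit that turns inside the head, rose in SW1990 (0.29, SE 0.09, adjusted p = 0.0317, lost in 7 of 23 alternative fits) and measured 37.7 to 43.7 and 40.6 to 45.2 RPKM in CFPAC-1. The difference between these changes was not called (0.23, adjusted p = 0.205). *ATP5E*, the epsilon subunit, ranged from 25.6 to 75.4 RPKM with overlapping groups and no call. Its pseudogene *ATP5EP2* was listed at 37.3 to 92.1 RPKM, and reads of the pair may be shared.

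Among the genes for the peripheral stalk and membrane part, *ATP5F1* (subunit b) rose in both lines. In CFPAC-1 its level was 26.8 ± 1.91 RPKM in negative and 46.9 ± 4.23 in positive samples (log2 fold change 0.81, SE 0.12, adjusted p = 0.000485). In SW1990 the levels were 28.4 ± 3.92 and 36.5 ± 4.54 RPKM (0.36, adjusted p = 0.0439). The SW1990 call was lost in 14 of 23 alternative fits. *ATP5J*, coupling factor 6, measured 15.9, 15.1 and 15.6 RPKM in negative and 23.7, 24.6 and 34.1 RPKM in positive CFPAC-1 samples (0.80, SE 0.16, adjusted p = 0.00248). In SW1990 it overlapped, at 20.1 to 26.8 and 17.9 to 24.7 RPKM. Of its exon bases, 34.4% lie opposite exons of *GABPA*. *ATP5J2*, subunit f, rose by 0.71 in CFPAC-1 (SE 0.16, adjusted p = 0.005) and overlapped in SW1990 at 9.63 to 15.9 and 11.8 to 14.3 RPKM. It shares exons with the read-through gene *ATP5J2-PTCD1*, which was not called in either line. *ATP5L*, subunit g, rose by 0.41 in CFPAC-1 (SE 0.09, adjusted p = 0.00445), a call lost in 2 of 24 alternative fits, while its retrocopy *ATP5L2* had at most 8 reads in any sample.

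**Figure D2:**
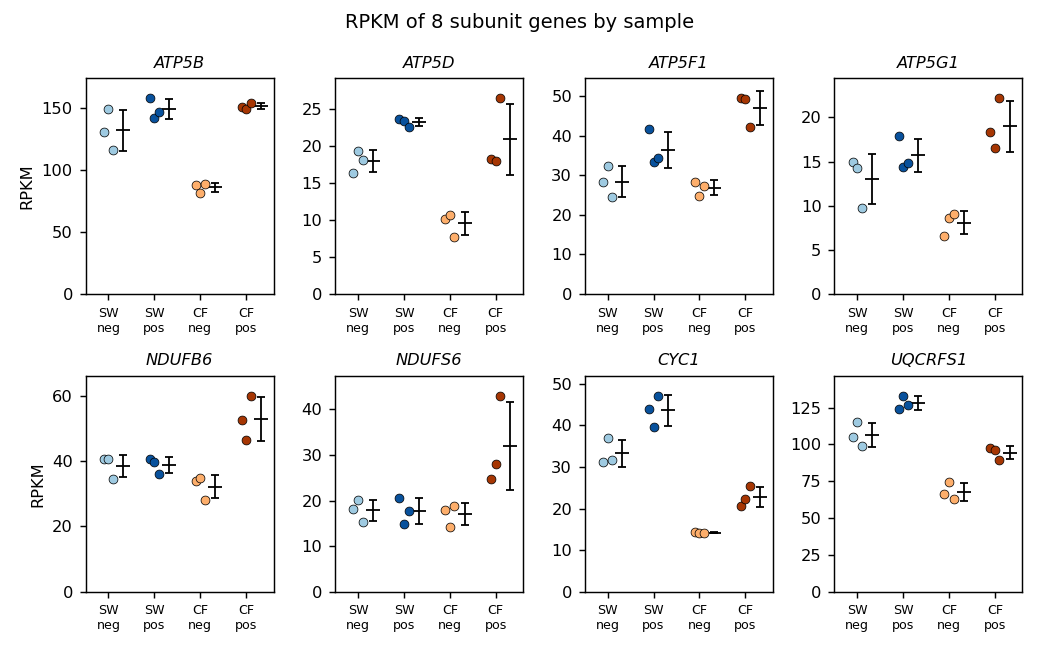
RPKM of 8 subunit genes in each sample, on linear axes from 0. SW and CF stand for SW1990 and CFPAC-1, neg and pos for negative and positive cells, points are samples and the bars beside them are mean ± SD (n = 3). *ATP5B* rose from 81.8 to 88.5 RPKM in negative CFPAC-1 samples to 149 to 154 RPKM in positive ones, while its SW1990 groups overlapped.

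The c subunit, which forms the rotating ring, is encoded by 3 genes whose mature proteins are the same and whose import signals differ. *ATP5G2* (chr12:54026510-54071192, GRCh37, minus strand) was the most abundant in every sample and fell in positive SW1990 cells. It measured 78.6, 94.3 and 76.3 RPKM in negative and 40.6, 54.1 and 45.0 RPKM in positive samples. The highest positive sample was under the lowest negative one, with a log2 fold change of −0.84 (SE 0.12, adjusted p = 0.000196), the one lower call among the 89 in that line. In CFPAC-1 it measured 103, 98.9 and 102 RPKM against 91.2, 109 and 104 RPKM, and its change was −0.01 (SE 0.12, adjusted p = 0.984). The 2 changes differed by −0.83 (adjusted p = 0.00315).

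*ATP5G1* (chr17:46970127-46973233, GRCh37, plus strand) rose in CFPAC-1. Its levels were 6.60, 8.64 and 9.01 RPKM in negative and 18.3, 16.5 and 22.2 RPKM in positive samples, with 83 to 309 reads each. The rise of 1.22 (SE 0.18, adjusted p = 0.000412), or 2.34-fold, was the highest of the 89 in CFPAC-1. In SW1990 it measured 15.0, 14.3 and 9.80 against 17.9, 14.4 and 14.8 RPKM, which overlapped (0.28, adjusted p = 0.281). The 2 changes differed by −0.94 (adjusted p = 0.0175). *ATP5G3* rose in both lines, from 14.9 ± 0.559 to 21.0 ± 0.0703 RPKM in CFPAC-1 (0.49, adjusted p = 0.00497), and its SW1990 level rose from 27.3 ± 4.28 to 34.0 ± 2.84 RPKM. The latter passed narrowly (0.32, adjusted p = 0.044), with overlapping groups, and was lost in 14 of 23 alternative fits.

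As a share of the summed RPKM of the 3 genes, *ATP5G2* took 64.9%, 67.3% and 70.0% in negative and 42.6%, 54.2% and 48.0% in positive SW1990 samples. In CFPAC-1 it took 82.4%, 80.7% and 81.4% in negative and 69.9%, 74.5% and 70.6% in positive samples. In both lines the groups did not overlap and the share was lower in positive cells. For 3 samples against 3, the 2-sided exact permutation p was 0.1 in each line, the smallest that this design allows. The sum of the 3 genes was 109 to 140 RPKM in negative SW1990 samples and 93.8 to 99.7 RPKM in positive ones, and 124 ± 1.63 and 141 ± 9.27 RPKM (mean ± SD, n = 3) in CFPAC-1. In SW1990 the lower share of *ATP5G2* went with a lower level of its own. The means of the other 2 genes were also higher there, from 13.0 to 15.7 RPKM for *ATP5G1*, which was not called, and from 27.3 to 34.0 RPKM for *ATP5G3*. In CFPAC-1 the lower share went with higher levels of the other 2 genes.

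**Figure D3:**
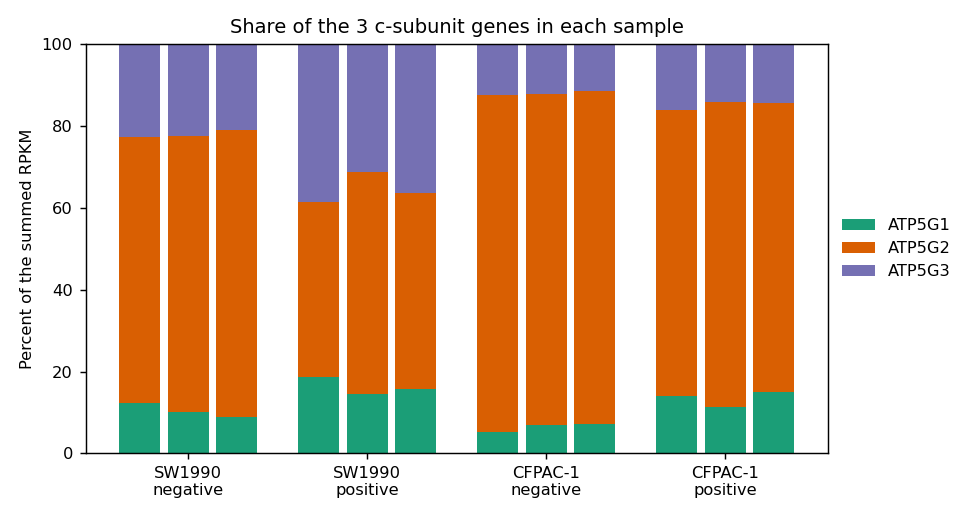
Share of *ATP5G1*, *ATP5G2* and *ATP5G3* in their summed RPKM, in percent, one stacked bar per sample. *ATP5G2* took 64.9% to 70.0% in negative SW1990 samples, 42.6% to 54.2% in positive ones, and 80.7% to 82.4% and 69.9% to 74.5% in CFPAC-1.

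The promoters of 6 of these genes are given for reference: the c-subunit pair that moved apart, *COX6B2*, which moved in opposite directions in the 2 lines, 2 complex III genes that rose in CFPAC-1, and the complex II gene *SDHA*. Each is a RefSeq window on GRCh38.p14 of 300 bases around an annotated transcription start, mostly upstream of it, read 5′ to 3′. Such windows were used for 71 of the 92 genes. *ATP5G2* has 3 windows, of which 1 is shown. Capitals mark matches to the palindromic GC-rich motif of NRF1 (a regulator of respiratory genes), CCGGAAGT (ETS factors), AAGATGGC (YY1) and TGACGTCA (CREB), on either strand.
ATP5G1 (chr17:48892537-48892836, plus strand): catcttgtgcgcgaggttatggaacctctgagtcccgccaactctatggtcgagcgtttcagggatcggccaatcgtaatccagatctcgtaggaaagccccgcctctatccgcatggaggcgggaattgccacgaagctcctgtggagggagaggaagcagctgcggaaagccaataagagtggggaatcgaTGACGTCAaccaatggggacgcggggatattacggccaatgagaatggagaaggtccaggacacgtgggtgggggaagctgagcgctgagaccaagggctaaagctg
ATP5G2 (chr12:53676034-53676333, minus strand): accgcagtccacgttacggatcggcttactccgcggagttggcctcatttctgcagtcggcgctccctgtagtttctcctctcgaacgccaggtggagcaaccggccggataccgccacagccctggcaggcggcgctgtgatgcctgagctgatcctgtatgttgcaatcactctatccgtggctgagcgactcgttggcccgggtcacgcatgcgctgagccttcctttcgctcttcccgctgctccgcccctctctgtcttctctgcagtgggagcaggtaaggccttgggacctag
COX6B2 (chr19:55354670-55354969, minus strand): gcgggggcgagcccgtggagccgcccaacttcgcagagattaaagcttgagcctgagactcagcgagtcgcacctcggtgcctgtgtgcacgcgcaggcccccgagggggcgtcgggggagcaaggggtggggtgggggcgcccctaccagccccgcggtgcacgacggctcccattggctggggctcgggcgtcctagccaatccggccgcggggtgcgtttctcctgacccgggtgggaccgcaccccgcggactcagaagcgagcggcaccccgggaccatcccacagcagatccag
UQCR11 (chr19:1605413-1605712, minus strand): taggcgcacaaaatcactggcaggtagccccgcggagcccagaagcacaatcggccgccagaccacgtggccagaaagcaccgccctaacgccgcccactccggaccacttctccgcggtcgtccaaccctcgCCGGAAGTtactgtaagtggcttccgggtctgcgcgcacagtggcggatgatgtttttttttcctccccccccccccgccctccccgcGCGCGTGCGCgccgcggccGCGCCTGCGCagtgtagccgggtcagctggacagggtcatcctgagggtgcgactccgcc
UQCRFS1 (chr19:29213102-29213401, minus strand): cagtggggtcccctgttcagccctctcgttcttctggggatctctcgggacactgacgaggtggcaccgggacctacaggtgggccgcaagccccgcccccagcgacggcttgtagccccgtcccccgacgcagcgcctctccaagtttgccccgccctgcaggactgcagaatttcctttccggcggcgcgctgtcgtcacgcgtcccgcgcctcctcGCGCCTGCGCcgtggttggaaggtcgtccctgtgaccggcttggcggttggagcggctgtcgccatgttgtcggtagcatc
SDHA (chr5:218070-218369, plus strand): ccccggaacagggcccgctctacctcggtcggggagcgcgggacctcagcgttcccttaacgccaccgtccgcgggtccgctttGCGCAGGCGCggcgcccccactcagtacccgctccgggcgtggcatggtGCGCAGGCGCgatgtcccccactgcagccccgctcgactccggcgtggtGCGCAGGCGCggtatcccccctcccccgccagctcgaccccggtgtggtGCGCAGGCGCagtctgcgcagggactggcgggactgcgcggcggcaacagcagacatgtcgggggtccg

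Of the 82 windows of subunit genes, 19.5% held the NRF1 motif, against 5.78% of all 35116 windows. The ETS motif was in 13.4% against 4.14%, the YY1 motif in 15.9% against 2.89%, and the CREB motif in 6.1% against 1.85%. *SDHA* held 4 NRF1 matches, *UQCR11* held 2 with an ETS match, *UQCRFS1* held 1, *ATP5G1* held a CREB match, and none of the 4 motifs was in the windows shown for *ATP5G2* and *COX6B2*. Among 66 fitted subunit genes with a window, 6 of 16 with the NRF1 motif and 20 of 50 without it were higher in positive CFPAC-1 cells. For the ETS motif the counts were 7 of 11 and 19 of 55, for YY1 7 of 12 and 19 of 54, and for CREB 1 of 5 and 25 of 61. These are matches of letters and were not tested.

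In complex III, 6 of 10 genes were higher in positive CFPAC-1 cells and 4 in positive SW1990 cells, with none lower in either and medians of 0.46 and 0.24. Of all genes, 22.3% and 11.3% were higher, and 14.2% and 16.9% lower. The change was called different between the lines for 0 of the 10, and for 1 after median centring. In the main fit it was called more positive in SW1990 for 9.16% and more negative for 17.8% of all genes. The counts were 4 and 4 after median centring, and 4 higher and 1 lower against 5 higher after removal of the length and GC trend.

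*CYC1*, which encodes cytochrome c1, measured 31.1, 36.9 and 31.7 RPKM in negative and 44, 39.7 and 47.1 RPKM in positive SW1990 samples. In CFPAC-1 it measured 14.3, 14.2 and 14.2 against 20.6, 22.4 and 25.3 RPKM. Positive samples were above negative ones in both lines, by 0.39 (SE 0.10, adjusted p = 0.0119) and 0.67 (SE 0.10, adjusted p = 0.000489), the SW1990 call being lost without positive replicate 3. The Rieske iron-sulphur protein gene *UQCRFS1* rose from 106 ± 8.10 to 128 ± 4.24 RPKM in SW1990 (0.27, SE 0.09, adjusted p = 0.0347), and in CFPAC-1 it rose from 67.9 ± 6.14 to 94.4 ± 4.17 RPKM (0.48, SE 0.09, adjusted p = 0.00147). The SW1990 call was lost when any of 5 of its 6 samples was left out.

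*UQCR11*, a small subunit, rose in CFPAC-1 from 7.45 ± 0.208 to 13.2 ± 2.34 RPKM (0.80, SE 0.15, adjusted p = 0.00217) and was not called in SW1990, at 12.7 ± 1.85 and 14.3 ± 2.25 RPKM. *UQCR10* rose in SW1990 (0.38, adjusted p = 0.00694), from 54.1 to 66.2 RPKM in negative to 76.8 to 84.2 RPKM in positive samples. The hinge protein gene *UQCRH* was listed at 62.2 to 113 RPKM over the 12 samples and its retrocopy *UQCRHL* at 165 to 338 RPKM. Both rose in CFPAC-1, by 0.44 (adjusted p = 0.0125) and 0.66 (adjusted p = 0.000586), and *UQCRHL* rose in SW1990 as well (0.38, adjusted p = 0.0165). The *UQCRH* call was lost after median centring and after removal of the length and GC trend, and the SW1990 call of *UQCRHL* without negative replicate 3 or positive replicate 1. The handling of reads that match more than 1 gene is not given in the sources used here, so the split between these near-identical copies is uncertain.

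In complex I, 14 of 36 genes rose and 1 fell in CFPAC-1, and 2 were higher in positive SW1990 cells (*NDUFA9* and *NDUFA10*), with medians of 0.30 and 0.07. Of all genes, 22.3% were higher and 14.2% lower in CFPAC-1, and 11.3% were higher and 16.9% lower in SW1990. The CFPAC-1 count was 5 higher and 2 lower after median centring, and 7 higher and 1 lower without positive replicate 3. The shares of all genes after median centring are those given above, and those without positive replicate 3 are not given here. Among the core subunits, *NDUFS1* (0.39, adjusted p = 0.0257) and *NDUFS3* (0.41, adjusted p = 0.0297) rose in CFPAC-1, calls lost in 7 and 11 of 24 alternative fits. *NDUFS7*, *NDUFS8*, *NDUFV1* and *NDUFV2* were not called in either line, with negative and positive CFPAC-1 levels from 1.82 to 3.13 and 1.97 to 4.75 RPKM for *NDUFV2* and from 25.0 to 28.6 and 25.4 to 36.3 RPKM for *NDUFV1*.

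*NDUFS6*, an accessory subunit near the iron-sulphur centres, measured 18.0, 14.2 and 18.9 RPKM in negative and 24.8, 28.1 and 43.0 RPKM in positive CFPAC-1 samples. The high value was in positive replicate 3, and the rise was 0.87 (SE 0.20, adjusted p = 0.00556). In SW1990 its groups overlapped, at 15.4 to 20.1 and 14.8 to 20.6 RPKM, and the changes differed by −0.89 (adjusted p = 0.0357). *NDUFB6*, of the membrane arm, rose from 33.8, 34.7 and 28.1 to 52.5, 46.5 and 60.0 RPKM in CFPAC-1 (0.71, SE 0.12, adjusted p = 0.000754), and its SW1990 samples stayed between 34.5 and 40.7 RPKM. *NDUFA6* likewise rose in CFPAC-1 (0.55, adjusted p = 0.00255), and the changes differed by −0.48 (adjusted p = 0.0404). *NDUFA10*, also of the membrane arm, rose in SW1990 (0.28, adjusted p = 0.0466, lost in 11 of 23 alternative fits), from 8.28 to 8.71 RPKM to 10.1 to 10.8 RPKM, and was 8.19 to 9.36 and 7.27 to 8.49 RPKM in CFPAC-1, a difference of 0.44 (adjusted p = 0.0329).

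*NDUFA3*, a membrane-arm subunit, was the one complex I gene that fell. It measured 3.77, 3.10 and 3.40 RPKM in negative and 2.59, 1.96 and 1.70 RPKM in positive CFPAC-1 samples (−0.71, SE 0.17, adjusted p = 0.00759), on 6 to 26 reads each. The call was lost when voom was run on the reads. *NDUFA9*, a subunit near the quinone site, rose in both lines, by 0.37 (adjusted p = 0.0332) and 0.49 (adjusted p = 0.0067). The SW1990 call was lost in 7 of 23 alternative fits, among them those without any 1 of 5 of its 6 samples.

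In complex II, which also serves the citrate cycle, 1 of 4 genes passed, in CFPAC-1, where 22.3% of all genes were called higher. *SDHA*, the flavoprotein, measured 22.0, 22.6 and 23.2 RPKM in negative and 26.4, 27.5 and 29.2 RPKM in positive CFPAC-1 samples, a rise of 0.29 (SE 0.08, adjusted p = 0.0133), or 1.22-fold. In SW1990 it measured 15.9, 16.5 and 15.9 against 16.2, 17.4 and 18.5 RPKM, which overlapped. The CFPAC-1 call was lost under median centring, quantile normalization and removal of the length and GC trend. *SDHB*, the iron-sulphur subunit, was 4.39 to 6.57 RPKM in SW1990 and 4.73 to 10.0 RPKM in CFPAC-1. The membrane anchors *SDHC* and *SDHD* were 20.5 to 25.6 and 149 to 187 RPKM in SW1990, and 26.3 to 31.4 and 94.6 to 132 RPKM in CFPAC-1. In each of these 3 genes positive and negative samples overlapped in both lines.

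In complex IV, 3 of the 16 fitted genes were higher in each line, with 1 lower in CFPAC-1 (18.8% higher, against 11.3% of all genes in SW1990 and 22.3% in CFPAC-1), and the medians were 0.10 in SW1990 and 0.20 in CFPAC-1, the latter turning to −0.03, with 0 higher and 3 lower, after removal of the length and GC trend. *COX8A* and *COX7B* rose in both lines. *COX8A*, the most abundant of the 89 genes, went from 293 ± 39.1 to 388 ± 2.56 RPKM in SW1990 (0.41, SE 0.11, adjusted p = 0.0148), and in CFPAC-1 it rose from 290 ± 16.8 to 381 ± 37.9 RPKM (0.39, SE 0.11, adjusted p = 0.0167). The SW1990 call was lost without negative replicate 3 and after removal of the length and GC trend. The CFPAC-1 call was lost in 5 of 24 alternative fits, among them median centring, removal of that trend and the fits without negative replicate 1 or 3. *COX7B* rose by 0.46 (adjusted p = 0.014) and 0.39 (adjusted p = 0.0283), the former lost without negative replicate 1 and the latter in 9 of 24 alternative fits. *COX4I1*, the common form of subunit 4, rose in CFPAC-1 (0.55, SE 0.14, adjusted p = 0.0102), from 57.5, 56.9 and 57.1 to 75.0, 72.4 and 109 RPKM. The call was lost in 3 of 24 alternative fits, which ranged from 0.27 to 0.66.

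*COX6B2* changed most of all 89 genes in SW1990. It encodes the isoform of subunit 6B known from testis, and it lies at chr19:55860674-55866087 (GRCh37, minus strand). It measured 16.1, 9.43 and 22.2 RPKM in negative and 47.9, 76.3 and 67.1 RPKM in positive SW1990 samples, on 365 to 653 and 1544 to 2153 reads. The rise was 2.05 (SE 0.28, adjusted p = 0.000147), or 4.15-fold, and the call was kept in all 23 alternative fits. In CFPAC-1 it measured 33.0, 35.3 and 37.6 RPKM in negative and 20.4, 22.6 and 14.1 RPKM in positive samples, a fall of 0.91 on the log2 scale (SE 0.28, adjusted p = 0.0227). That call was lost without a filter on low values and without negative replicate 2, negative replicate 3 or positive replicate 3, with values from −1.05 to −0.71. The changes differed by 2.97 (SE 0.39, adjusted p = 0.000229), and this was called in all 22 alternative fits. The annotation gives 29.1% of its exon bases to a second, overlapping protein-coding gene on the same strand, so reads of the 2 cannot be separated here.

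*COX6B1*, the common form, was not called in either line, at 21.7 to 30.9 and 27.8 to 29.4 RPKM in SW1990 and 18.0 ± 1.98 and 17.9 ± 1.03 RPKM (mean ± SD, n = 3) in CFPAC-1. The share of *COX6B2* in the summed RPKM of the pair was 40.5%, 23.4% and 50.6% in negative and 63.3%, 73.2% and 69.6% in positive SW1990 samples. In CFPAC-1 it was 67.3%, 66.0% and 65.3% in negative and 54.4%, 56.3% and 42.6% in positive samples. The groups did not overlap in either line, and the order was opposite (2-sided exact permutation p = 0.1 in each, the smallest possible).

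**Figure D4:**
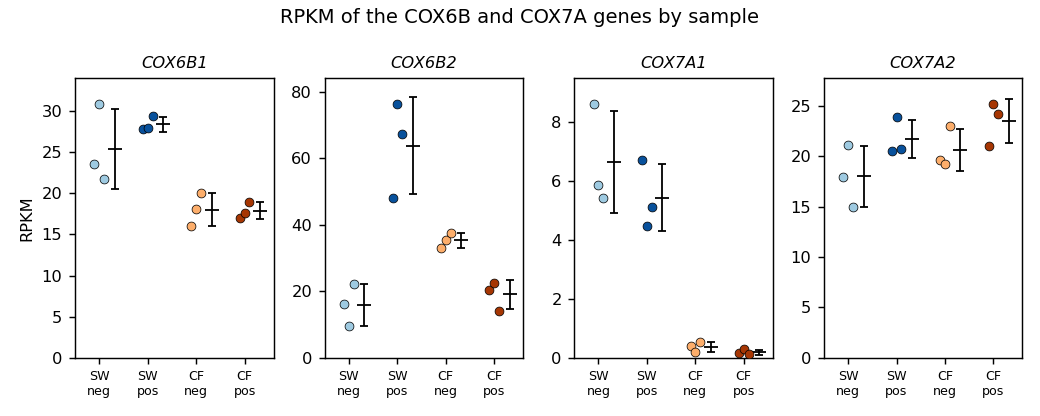
RPKM of the paired complex IV isoform genes *COX6B1* and *COX6B2*, and *COX7A1* and *COX7A2*, in each sample, on linear axes from 0. Points are samples and bars mean ± SD (n = 3), with SW1990 (SW) and CFPAC-1 (CF), negative (neg) and positive (pos). *COX6B2* moved from 9.43 to 22.2 up to 47.9 to 76.3 RPKM in SW1990 and from 33.0 to 37.6 down to 14.1 to 22.6 RPKM in CFPAC-1, and *COX7A1* was at most 0.527 RPKM in CFPAC-1.

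*COX7A1* (chr19:36641824-36643351, GRCh37, minus strand), the heart and muscle form of subunit 7A, separated the lines rather than the sorted cells. It measured 8.62, 5.86 and 5.42 RPKM in negative and 6.70, 4.48 and 5.11 RPKM in positive SW1990 samples. In CFPAC-1 it had 3 to 8 reads in negative and 1 to 4 reads in positive samples (0.132 to 0.527 RPKM). The summed reads, 312 against 17 in negative cells and 226 against 8 in positive cells, gave rate ratios of 18.3 (95% exact interval 11.2 to 31.8) and 28.7 (14.3 to 67.2), which cover counting error only. On the fitted scale, which depends on the added 0.1, the line differences were 3.89 (adjusted p = 4.27e-07) and 4.28 (adjusted p = 2.9e-07). *COX7A2*, the common form, was 15.0 to 23.9 RPKM in SW1990 and 19.2 to 25.2 RPKM in CFPAC-1, and *COX7A2L* was 68.7 to 95.2 RPKM over all samples, with no call for either. *COX7A1* took 15.8% to 32.5% of the *COX7A1* and *COX7A2* sum in SW1990 samples and 0.541% to 2.24% in CFPAC-1 samples.

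Of the other isoform pairs, *COX6A1* was 35.3 to 52.7 RPKM in SW1990 and 54.2 to 72.4 RPKM in CFPAC-1, with its muscle partner *COX6A2* at 0. *NDUFA4* was 10.2 to 15.5 RPKM over all samples with no call. *NDUFA4L2*, known as a hypoxia-responsive paralog, had at most 13 reads in a sample. The testis form *COX8C* had at most 14 reads, in negative CFPAC-1 replicate 3, and none in positive SW1990 samples.

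Between the lines, 42 of the 89 genes were higher and 24 lower in SW1990 than in CFPAC-1 among negative cells, where 40.7% and 28.2% of all genes were called. Among positive cells 29 were higher and 25 lower, where 32.9% and 29.3% of all genes were called. The medians were 0.26 and −0.03, beside 0.19 and 0.06 for all genes, and median centring brought the first to 0.07 beside 0.01. By the 2-fold threshold 13 genes were higher and 3 lower among negative cells (21.9% and 15.0% of all genes), and 4 and 7 among positive cells (14.8% and 13.7%). In 41 of the genes every negative SW1990 sample lay above every negative CFPAC-1 sample and in 22 below, as in 43.8% and 31.4% of all genes. Among positive cells the counts were 31 and 26, as in 33.9% and 30.0% of all genes. Both comparisons share their samples with those of positive against negative cells.

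By complex, 8 genes of complex V were higher and 4 lower in negative SW1990 cells, and 2 were higher and 4 lower in positive cells. Of all genes, 40.7% were higher and 28.2% lower among negative cells, and 32.9% and 29.3% among positive cells. *ATP5B* (0.61, adjusted p = 8.8e-05), *ATP5D* (0.92, adjusted p = 0.000209) and *ATP5G1* (0.67, adjusted p = 0.00547) differed between the negative groups and were not called between the positive groups. *CYC1* was higher in SW1990 in both, by 1.21 (adjusted p = 5.25e-07) and 0.94 (adjusted p = 6.8e-06), as were *NDUFA3* by 1.07 and 1.61 (adjusted p = 0.000139 and 6.23e-06) and *NDUFV2* by 1.34 and 1.08 (adjusted p = 0.00166 and 0.00771). *COX4NB*, not a subunit gene, was higher by 1.33 and 0.77 (adjusted p = 1.84e-06 and 0.000247).

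*COX7C* (chr5:85913745-85916779, GRCh37, plus strand), subunit 7C, was lower in SW1990. It measured 71.7, 124 and 82.7 RPKM in negative and 103, 109 and 107 RPKM in positive SW1990 samples, against 239, 233 and 241 and 214, 271 and 262 RPKM in CFPAC-1. The groups of the 2 lines did not overlap, with differences of −1.39 (adjusted p = 1.1e-05) and −1.22 (adjusted p = 4.62e-05). *NDUFS4* was lower by 1.05 and 1.14 on the log2 scale (adjusted p = 0.00211 and 0.00146), and *ATP5G2*, *ATP5L* and *ATP5SL* had the same difference of −1.13 among positive cells (adjusted p from 1.38e-07 to 5.12e-06). *COX6B2* changed its order, with −1.23 among negative (adjusted p = 0.00171) and 1.74 among positive cells (adjusted p = 0.000162). *COX8C* measured 0, 0.324 and 0.106 RPKM in negative SW1990 and 0.193, 0.517 and 1.32 RPKM in negative CFPAC-1 samples. *NDUFA4L2* measured 0.328, 0.253 and 0.619 against 0.0865, 0.0385 and 0 RPKM. Each passed the filter on low values only through the group where it was high, so no test is given for either, although both are among the genes counted as called between negative cells.

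**Figure D5:**
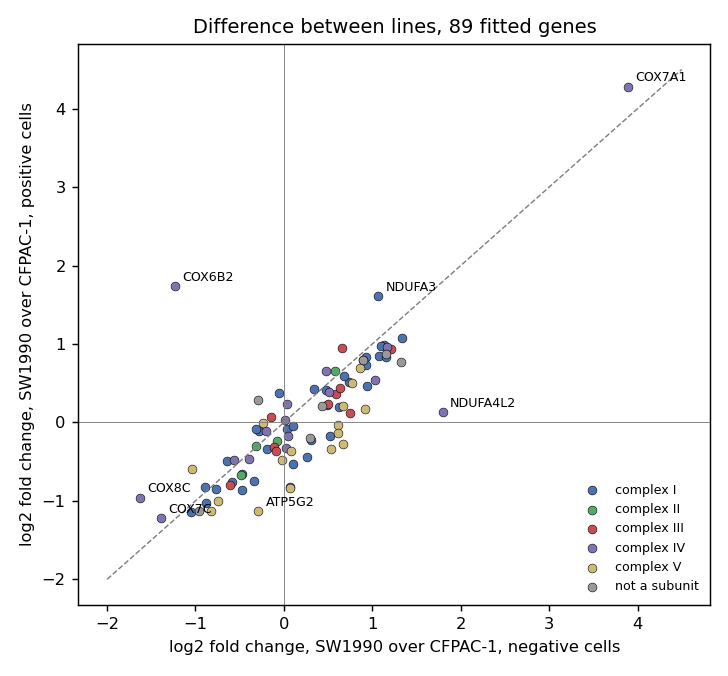
Log2 fold change of SW1990 over CFPAC-1 for the 89 fitted genes, in negative cells (x axis) and in positive cells (y axis), coloured by complex, with the dashed line marking equal differences. *COX7A1* lies at 3.89 and 4.28, *COX6B2* at −1.23 and 1.74, and *COX7C* at −1.39 and −1.22.

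Other genes of mitochondrial function were counted in the same fit, where 11.3% of all genes were higher and 16.9% lower in positive SW1990 cells, and 22.3% and 14.2% in CFPAC-1. Of 48 genes in a list of assembly factors with cytochrome c itself, 7 were higher in positive SW1990 and 18 in positive CFPAC-1 cells and none was lower, with medians of 0.12 and 0.26. They ran from *SCO1* (0.39) to *COX19* (0.80) in SW1990, and from *SDHAF2* (0.36) to *CYCS*, the electron carrier cytochrome c, in CFPAC-1 (1.03, adjusted p = 0.000136, 15.5 ± 1.31 to 31.9 ± 5.32 RPKM). After median centring, 8 were higher in SW1990, and 13 were higher and 2 lower in CFPAC-1.

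Of 76 genes for the mitochondrial ribosome, which translates the subunits encoded by mitochondrial DNA, 15 were higher in SW1990 and 48 in CFPAC-1 with none lower, and 20 and 31 after median centring. They ran from *MRPS18A* (0.26) to *MRPL33* (0.74) in SW1990 and from *MRPL9* (0.26) to *MRPL23* (1.42, adjusted p = 0.00126) in CFPAC-1. The medians were 0.20 and 0.38.

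Of 19 genes of the citrate cycle and pyruvate dehydrogenase, 5 were higher in SW1990 and 10 in CFPAC-1 with none lower, and 5 and 7 after median centring. *IDH3A*, of isocitrate dehydrogenase, led in SW1990, from 15.0 ± 1.16 to 28.2 ± 1.90 RPKM (0.91, adjusted p = 2.09e-05). *FH*, fumarase, led in CFPAC-1, from 7.93 ± 1.20 to 16.5 ± 1.98 RPKM (1.05, adjusted p = 0.000402). *MDH2* had the least change of those called, 0.30 and 0.27.

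Of 21 regulators of mitochondrial genes and keepers of mitochondrial DNA, 1 was higher and 4 lower in SW1990, and 8 were higher and 2 lower in CFPAC-1. After median centring the counts were 2 and 3 in SW1990, and 6 and 3 in CFPAC-1. *PPARGC1A*, the coactivator PGC-1 alpha, fell from 0.873 ± 0.22 to 0.0873 ± 0.0118 RPKM in SW1990 (−2.35, SE 0.25, adjusted p = 2.06e-05) and was 0.663 ± 0.0772 and 1.04 ± 0.286 RPKM in CFPAC-1. *ESRRA*, a nuclear receptor that it activates, was the one higher in SW1990 (0.38, adjusted p = 0.0215). In CFPAC-1 *PPARGC1B* was the most raised (0.99, adjusted p = 0.00347) and *PPARA* the most lowered (−1.14, adjusted p = 0.0105).

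Genes of the cell cycle moved with the same sort. All 18 S phase genes were higher in positive CFPAC-1 cells, with a median of 1.90 and summed levels of 236 to 263 RPKM in negative and 735 to 924 RPKM in positive samples. They ran from *SLBP* (0.93) to *CDC45* (2.62). In SW1990, 8 of the 18 were higher, from *RRM1* (0.36) to *CDC6* (0.81), with a median of 0.45 and sums of 529 to 706 and 743 to 913 RPKM. Of 18 genes of G2 and M phase, 16 were higher in CFPAC-1, from *NUSAP1* (0.41) to *AURKB* (1.26), and 1 in SW1990, *PLK1* (0.59), with none lower. As above, 22.3% of all genes were higher in CFPAC-1 and 11.3% in SW1990. The part of the cell cycle genes in the rise of the respiratory genes was not tested.

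Of 72 genes for the cytosolic ribosome, 21 were higher and 3 lower in CFPAC-1 and 3 were lower in SW1990, with medians of 0.27 and −0.12. The higher genes made up 29.2% of the list in CFPAC-1, against 22.3% of all genes. After median centring 10 were higher and 3 lower in CFPAC-1. They ran from *RPS29* (−0.79) to *RPS26* (1.12) in CFPAC-1 and from *RPS12* (−0.58) to *RPL10* (−0.27) in SW1990. Of 15 genes of dissociation and stress, 2 were higher and 1 lower in SW1990, with *DNAJB1* at 0.46 and *JUN* at −0.86, and 2 were higher and 5 lower in CFPAC-1, with *HSP90AA1* at 0.88 and *DUSP1* at −1.15. The shares of all genes higher and lower were 11.3% and 16.9% in SW1990 and 22.3% and 14.2% in CFPAC-1. After median centring 1 was higher and 7 lower in CFPAC-1. Among the epithelial markers all 5 were higher in SW1990, from *KRT18* (1.29) to *CDH1* (3.04), and 2 in CFPAC-1, *KRT8* and *KRT18*, at 0.70 each. *CD68* of the leukocyte list (−1.02) and *COL1A1* of the fibroblast list (−0.86) were lower in positive SW1990 cells.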

How the data were processed

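RNA of 12 flow-sorted samples, 3 per group, was sequenced by the authors, with alignment to hg19 (GRCh37) and counting per gene in QuasR. The deposited values are RPKM, made by the authors from counts normalised for library size and gene length. The submitters' processing notes also name bcl2fastq. The annotation, the use of strand and the handling of reads with several matches are not given in the sources used here. The labels and the study's methods differ in the library kit named. The study's own test, TCC, was not used.

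The depths of 9969697 to 26159330 reads were recovered first, from single-exon genes with 1 read, 56 to 75 of them per library. A length was then sought for each gene that made its values whole multiples of 1 read (within 0.01 reads). It was found for all 19654 genes above 0 in any sample, which is easily met by genes with reads in few samples. Another 3692 genes were at 0 throughout. The exact intervals of the *COX7A1* rate ratios cover counting error only. The main test was limma 3.58.1 (R 4.3.3) on log2(RPKM + 0.1) for the 16236 genes with a mean of at least 0.1 RPKM, with 4 group means and a trended prior, 2-sided, with Benjamini-Hochberg adjustment over all of them. Fold changes are on that scale and understate those of low genes. In simulated data for positive against negative SW1990 cells (16236 genes), 100 genes were changed 1.3-fold and 100 were changed 2-fold. These genes were well above the filter, and 1 assumed spread of the reads served all genes. There, 7% of 1.3-fold and 91% of 2-fold changes were called, and 0.031% of unchanged genes. The real SW1990 fit called 11.3% of genes higher and 16.9% lower, which loosens the adjusted threshold. The simulated rates thus need not hold for it. Python 3.11.15 with scipy 1.17.1 and matplotlib 3.10.9 was used for the rest, and mgcv 1.9.3 for the length and GC trend, which covered 94.3% of genes.

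The members, gene lists and tests were chosen with earlier results of these data known. Named genes were, per comparison, the 3 called members with the highest and the 3 with the lowest fold change, the 5 with the largest difference between lines, those below the filter, paralog groups, the *SDH* genes and the catalytic core, and in each related list the highest and lowest called gene per line. *ATP5F1*, *ATP5I*, *UQCR10*, *UQCR11* and *NDUFA9* were added after their values were seen. Alternatives covered the pseudocount, the filter, scaling, the replicate number as a block, voom on the recovered reads and leaving out each sample. Leaving out positive CFPAC-1 replicate 3 together with median centring was chosen after seeing the data. A gene covered by the naming rule is not reported here.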

Additional observations from a re-analysis of the deposited data

Results flagged for a closer look

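For 12 of the 89 fitted genes, the change from negative to positive cells differed between SW1990 and CFPAC-1 by the interaction term of the limma fit (adjusted p under 0.05 over all genes). The background is the 9.16% of all genes with a more positive and the 17.8% with a more negative change in SW1990. In complex V the differences (SW1990 change minus CFPAC-1 change, log2) were −0.94 for *ATP5G1* (adjusted p = 0.0175), −0.86 for *ATP5J* (adjusted p = 0.0141), −0.83 for *ATP5G2* (adjusted p = 0.00315), −0.75 for *ATP5J2* (adjusted p = 0.0287), −0.75 for *ATP5D* (adjusted p = 0.0261) and −0.64 for *ATP5B* (adjusted p = 0.00391). In complex I they were −0.89 for *NDUFS6* (adjusted p = 0.0357), −0.70 for *NDUFB6* (adjusted p = 0.00819), −0.48 for *NDUFA6* (adjusted p = 0.0404) and 0.44 for *NDUFA10* (adjusted p = 0.0329). *COX4NB*, not a subunit gene, differed by −0.57 (adjusted p = 0.0377), and *COX6B2* of complex IV by 2.97 (adjusted p = 0.000229).

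The calls for *ATP5B*, *ATP5G1*, *ATP5G2*, *ATP5J* and *COX6B2* were kept in all 22 alternative fits. Those of the others were lost in 1 (*NDUFB6*), 6 (*ATP5D*), 7 (*NDUFA10*), 10 (*ATP5J2*), 11 (*NDUFS6*), 13 (*COX4NB*) and 15 (*NDUFA6*) of them. In the same contrast 17 of 18 S phase genes had a more negative change in SW1990 and 0 a more positive one. Their part in these differences was not tested.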

How the results depend on the processing

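The number of genes higher in positive CFPAC-1 cells (35) was 20 after median centring, 23 after quantile normalization, 17 with the length and GC trend removed and 19 with median centring without positive replicate 3, and the number lower (2) was 4, 4 and 6 under the first 3, and 1 without a filter or with voom. Between the lines' changes, 2 genes were more positive and 10 more negative, against 8 more positive with the trend removed and 5 more negative without a filter or after median centring. The shares of all genes called between the changes under these alternatives are not given here. Over 2-fold with p under 0.01, the counts were 1 and 0 in SW1990, 2 and 0 in CFPAC-1, 1 and 0 between the changes, 13 and 3 between negative and 4 and 7 between positive cells. Leaving out 1 sample at a time gave 4 to 23 higher and 1 to 2 lower in SW1990, 26 to 38 and 1 to 4 in CFPAC-1, 1 to 3 and 5 to 16 between the changes, 36 to 43 and 17 to 25 between negative and 27 to 33 and 21 to 27 between positive cells. The number of calls over all genes in those fits is not given here. *ATP5G2*, at −0.01 in CFPAC-1, was −0.20 to 0.07 over all alternatives and −0.06 to 0.07 without 1 sample, with 0.01 without negative replicate 1 and 0.07 without positive replicate 1. Of the 125 results for named genes, 77 kept their direction and side of the threshold in every alternative, with 22 to 24 alternatives each. The 2-group fits give no difference between changes. Small shifts of short, low genes are limited by depth.

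Same-numbered samples did not deviate together throughout (correlations from −0.0593 to 0.185), so the replicate numbers were not taken to pair samples. With the replicate number as a block, 8 genes were higher and 2 lower in SW1990, 36 and 2 in CFPAC-1, 2 and 8 between the changes, 41 and 24 between negative and 29 and 25 between positive cells.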
